A study of Mus musculus with 8 samples.

Results

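Vegfa, Vegfb, Vegfc, Pdgfa, Pdgfb, Pdgfc, Igf1, Hgf, Hbegf and Areg encode 10 secreted factors that act on blood vessels, stroma and epithelium and that tumor-associated macrophages (TAMs) can make. They were chosen by name, and all 10 were found among the 26939 genes that the 3 count tables cover. The row of Areg, however, carries the symbol Mcub in the tables and was found by its Ensembl identifier (ENSMUSG00000029378), its position and its own protein description, while the other 9 were found by symbol. RNA was sequenced in bulk from 8 samples of TAMs, which were gated as live, CD45+, CD11b+, F4/80+ and Gr-1- cells. They came on day 21 from tumors of EO771, a mouse breast cancer line implanted in the mammary fat pad of female C57BL/6J mice aged 8 to 14 weeks. Each of the 2 genotypes, WT and Unc93b1 3d/3d, had 2 control libraries and 2 αMARCO libraries, which makes 4 groups. The Unc93b1 3d/3d mutation is carried by every cell of the mouse and removes endosomal Toll-like receptor (TLR) signaling. αMARCO is a rat IgG1 antibody (clone ED31) to the scavenger receptor MARCO, given at 100 µg every 3 days from day 3 to day 12.

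Some facts limit the groups. The control samples are labelled untreated, their columns are named PBS and the protocol names an isotype antibody, so what the control mice were given is not settled. Each control sample was pooled from 3 mice, and the pooling of the αMARCO samples is not given in the sources used here. Unc93b1 3d/3d control replicate 2 has its genotype tag written 3d/4d while its title reads 3d/3d, and it was kept under its title. The library totals ran from 15182618 to 26411936 counts. The 2 Unc93b1 3d/3d αMARCO libraries stood apart from each other, with a chi-square of 115 per degree of freedom against 8.27 to 13.2 between the replicates of the other groups, and the nuclear RNA Malat1 at 3169 and 636 CPM, the count of a gene relative to the TMM-scaled total of its library. Unc93b1 3d/3d αMARCO replicate 2 had the fewest genes with a count, at 19700 against 20849 to 23152 in the other libraries. It also had the lowest TMM factor, at 0.908 against 0.982 to 1.05. Values given without replicate 1 of that group rest on replicate 2 alone for the group. The 8 macrophage markers summed to between 6776 and 8667 CPM in every library. Single markers differed, since between the control groups 2 of the 8 were called higher in WT (Itgam and Ptprc) and 2 lower (Mertk and Lyz2) by the test described below. The Unc93b1 transcript was at 848 and 965 CPM in WT control and at 539 and 660 CPM in Unc93b1 3d/3d control, but the 3d allele is a point mutation, so this level does not check the genotype.

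The VEGF ligands act on receptor tyrosine kinases of blood vessel endothelium (VEGF-A and VEGF-B) and of lymphatic endothelium (VEGF-C), with VEGF-A as the main driver of vessel growth in hypoxic tissue. The PDGF ligands recruit pericytes and fibroblasts through PDGF receptors alpha and beta, IGF-1 signals growth and survival, and HGF drives the motility and growth of epithelial cells through MET. HB-EGF and amphiregulin, the product of Areg, are made as membrane-bound precursors that sheddases release to act on the EGF receptor. Macrophages in tumors and in healing wounds are a known source of several of these factors.

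The bases just upstream of the transcript start are shown for 4 genes whose RNA differed in a comparison below and whose window lies outside the annotated exons of the gene. They were taken from RefSeq (GRCm38.p6), are written 5′ to 3′ on the strand of the gene, and have in capitals each match to the GC box letters GGGCGG on either strand. The windows are chr17:46032378-46032627 (minus strand) for Vegfa, chr5:91139349-91139598 (plus strand) for Areg, chr3:81036166-81036415 (plus strand) for Pdgfc and chr5:16553245-16553494 (plus strand) for Hgf.
Vegfa: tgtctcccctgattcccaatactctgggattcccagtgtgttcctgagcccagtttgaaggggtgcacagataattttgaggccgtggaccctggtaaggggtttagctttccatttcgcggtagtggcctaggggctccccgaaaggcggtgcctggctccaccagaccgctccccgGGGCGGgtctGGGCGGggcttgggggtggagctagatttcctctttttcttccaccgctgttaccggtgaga
Areg: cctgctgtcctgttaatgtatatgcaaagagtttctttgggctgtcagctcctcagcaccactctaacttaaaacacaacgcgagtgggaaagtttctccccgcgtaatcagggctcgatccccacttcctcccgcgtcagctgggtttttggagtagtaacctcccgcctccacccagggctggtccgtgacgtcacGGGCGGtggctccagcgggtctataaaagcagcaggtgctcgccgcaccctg
Pdgfc: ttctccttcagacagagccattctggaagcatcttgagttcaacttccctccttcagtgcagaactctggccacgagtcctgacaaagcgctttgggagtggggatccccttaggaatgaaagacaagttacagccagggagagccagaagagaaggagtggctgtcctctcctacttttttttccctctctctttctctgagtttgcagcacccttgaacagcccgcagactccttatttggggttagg
Hgf: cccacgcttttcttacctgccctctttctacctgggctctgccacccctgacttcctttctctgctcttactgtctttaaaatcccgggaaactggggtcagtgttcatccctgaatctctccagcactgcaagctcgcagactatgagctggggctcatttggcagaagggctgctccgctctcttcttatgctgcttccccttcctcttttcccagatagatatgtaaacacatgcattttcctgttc
The Vegfa window held 2 GC boxes and 59.2% G and C, and the Areg window 1 GC box and 57.2% G and C. The Pdgfc and Hgf windows held none and were both at 50.8% G and C. Over the 11 RefSeq windows matched to 8 of the 10 genes, 63.6% held GGGCGG, against 32.7% of all 32851 windows of the same 250 bases. This motif was chosen after the windows had been seen. The core letters of hypoxia-inducible factor sites, ACGTG, were in 9.1% of the 11 windows against 16.6% of all windows. The AP-1 letters TGAGTCA or TGACTCA were in 0.0% against 4.5%. The only ACGTG match lay in another Vegfa window, not shown, that overlaps exons of the gene. Vegfa, Pdgfa and Hgf had more than 1 of the 11 windows each, and some of the 11 overlapped exons of their gene. These matches describe letters in the windows only.

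Vegfa had the highest mean level of the 10 transcripts in these TAMs and Vegfc was close to the detection floor. Levels between genes were compared as FPKM, the TMM-scaled CPM per kilobase of the gene length given in the tables, averaged over the 8 libraries. Vegfa stood at 43.5 FPKM (range 25.3 to 78.9) and Pdgfb followed at 25.3 FPKM (16.9 to 30.0). Their ranges overlapped, while both lay above every library of the other 8 genes. Areg was at 9.48 FPKM (5.64 to 13.4) and Vegfb was next at 7.72 FPKM (7.25 to 8.59), 2 neighbors that did not differ beyond their spread. Pdgfa was at 3.45 FPKM (2.46 to 4.80), below every library of Vegfb. Hbegf at 2.58, Pdgfc at 2.30, Hgf at 1.98 and Igf1 at 1.25 FPKM overlapped with Pdgfa and with each other in their ranges. Vegfc had 0.121 FPKM, from 3 to 11 counts per library, where the floor of 3 counts is 0.114 to 0.198 CPM. Vegfb was the steadiest of the 10, with a highest library 1.18 times its lowest, against 3.12 times for Vegfa, 3.42 times for Igf1 and 3.44 times for Pdgfc.

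**Figure D1:**
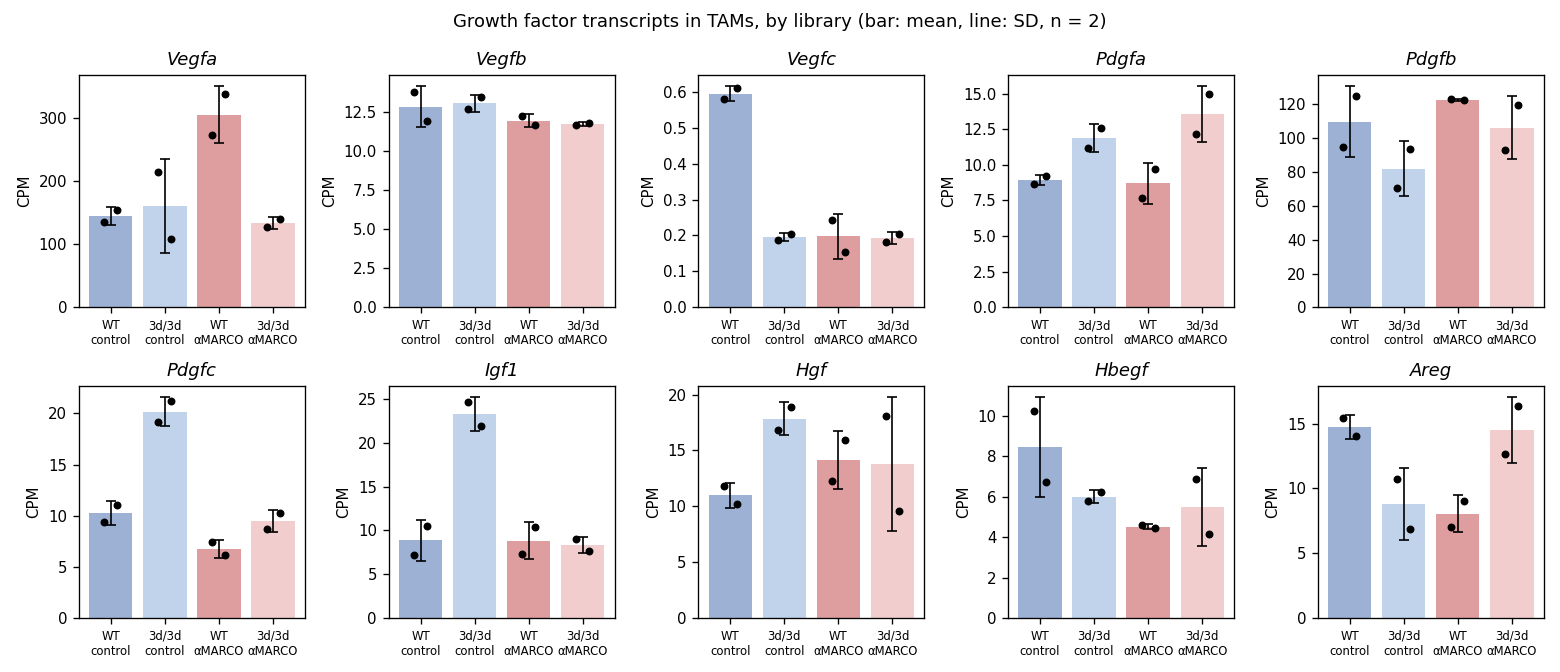
CPM of each of the 10 transcripts (linear vertical axes from 0, each panel with its own scale) in the 4 groups. Bars give the mean, lines the SD and points the 2 libraries of a group. Vegfa stands highest in WT αMARCO TAMs, Igf1 and Pdgfc in Unc93b1 3d/3d control TAMs, and Areg in WT control and Unc93b1 3d/3d αMARCO TAMs.

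The design asks how loss of endosomal TLR signaling changes these factors, with and without αMARCO, and how αMARCO changes them in each genotype. A call needed a log2 fold change of 0.5 or more in either direction together with an adjusted p no higher than 0.05 (edgeR quasi-likelihood test, Benjamini-Hochberg over all genes tested). In control TAMs, 3 of 10 transcripts were called, all lower in WT than in Unc93b1 3d/3d (Pdgfc, Igf1 and Hgf), where 13% of 15600 genes were called, 6.4% lower and 6.58% higher in WT. With αMARCO in WT TAMs, 4 of 10 were called, with Vegfa higher and Pdgfc, Hbegf and Areg lower, where 20.7% of 15630 genes were called, 8.91% higher and 11.8% lower. Over the 10 genes the median log2 fold change was -0.10 in the first comparison and -0.06 in the second, beside -0.0036 and -0.01 over all genes tested. None of the 9 tested was called between the genotypes under αMARCO, where edgeR called 0% of 15722 genes (1076 had an unadjusted p under 0.05) and DESeq2 called 215. None of the 9 tested was called with αMARCO in Unc93b1 3d/3d TAMs, where edgeR called 0% of 15428 genes (744 at an unadjusted p under 0.05) and DESeq2 called 60. The difference between the αMARCO effects of the 2 genotypes gave 0 calls for the 10 genes and 0% of 16620 genes in edgeR, with 2549 at an unadjusted p under 0.05 and 208 called by DESeq2. Vegfc did not pass the filter on low counts between the genotypes under αMARCO or with αMARCO in Unc93b1 3d/3d TAMs, and passed in the others with WT control as the group where it is high. WT control libraries serve in 2 comparisons, as do those of each other group, so the comparisons share libraries.

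**Figure D2:**
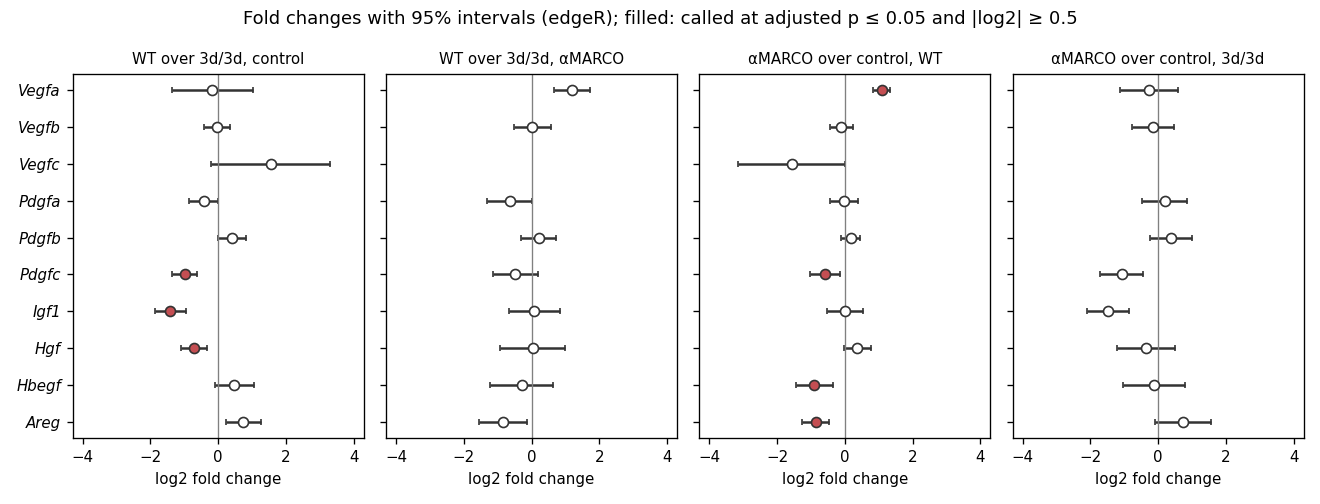
Log2 fold changes (horizontal axis) with 95% confidence intervals from edgeR for the 10 transcripts in 4 comparisons of 2 against 2 libraries. Filled points were called: Pdgfc, Igf1 and Hgf between the control groups, and Vegfa, Pdgfc, Hbegf and Areg with αMARCO in WT TAMs. Vegfc was not tested in the panels where its point is missing.

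Vegfa (chr17, 46016993 to 46032369, minus strand), which encodes VEGF-A, was higher with αMARCO in WT TAMs. It was at 135 and 155 CPM in WT control, 274 and 338 CPM in WT αMARCO, 214 and 108 CPM in Unc93b1 3d/3d control, and 127 and 140 CPM in Unc93b1 3d/3d αMARCO. Both WT αMARCO libraries stood above the other 6, and the 2 Unc93b1 3d/3d control libraries spanned the range of the other control group. In WT TAMs the log2 fold change with αMARCO was 1.08 (SE 0.12, 2.12-fold, adjusted p = 0.000355), and it ran from 0.92 to 1.24 with 1 library left out. In 1 fit of all 8 libraries, which share 1 estimate of the spread, the value was 1.08 and was not called (adjusted p = 0.114). Under αMARCO, Vegfa in WT TAMs was 2.29 times its level in Unc93b1 3d/3d TAMs (log2 1.20, SE 0.21, 95% interval 0.66 to 1.73) with groups that did not overlap, but the adjusted p of 0.336 did not pass. It was called there by DESeq2 (adjusted p = 0.000939). The log2 fold change was 1.13 without Unc93b1 3d/3d αMARCO replicate 1 and 1.27 without replicate 2. In such fits the lone library is assumed to vary like the other group, so the size of the change is given here. A call kept or lost in such fits is not a test of its own. The numbers of all genes called in them are given below. With αMARCO in Unc93b1 3d/3d TAMs the log2 fold change was -0.26 (interval -1.12 to 0.59), and the difference between the αMARCO effects was 1.35 (SE 0.41, adjusted p = 0.318). Between the control groups the value rested on single libraries. It was -0.17 (SE 0.40) with all 4, 0.41 without Unc93b1 3d/3d control replicate 1 and -0.59 without replicate 2.

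Other measures moved with Vegfa. Mitochondrial genes took 1.03% to 1.08% of counts in WT control and 2.37% to 2.74% in WT αMARCO, while the Unc93b1 3d/3d αMARCO library with 2.06% had Vegfa at 127 CPM. The RNA Neat1 was at 647 and 639 CPM in WT control and at 2063 and 1897 CPM in WT αMARCO. These shifts stand beside the Pdgfc, Hbegf and Areg calls of the same comparison as well, and their part in any of the calls was not tested. The 6 epithelial and tumor cell markers summed to 106 and 52.3 CPM in WT control and to 30.9 and 32.0 CPM in WT αMARCO, which is lower where Vegfa was higher, and Krt14, Krt5, Krt18 and Epcam were at or under the floor in the latter. In bulk samples a change in the share of a cell type and a change in RNA per cell cannot be told apart.

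Vegfb and Vegfc encode the other VEGF ligands. Vegfb (chr19, 6982473 to 6987651, minus strand), a ligand of the receptor FLT1, lay between 11.6 and 13.8 CPM in all 8 libraries. Its log2 fold changes were -0.04 (interval -0.42 to 0.34) between the control groups, 0.03 (-0.52 to 0.57) under αMARCO, -0.10 (-0.45 to 0.25) with αMARCO in WT TAMs and -0.15 (-0.77 to 0.47) with αMARCO in Unc93b1 3d/3d TAMs. Vegfb did not pass the test in any of them. Vegfc (chr8, 54077606 to 54187096, plus strand), the lymphatic growth factor, had 11 and 11 counts in WT control and 3 to 5 counts in each of the other 6 libraries. Its levels were 0.579 and 0.610 CPM in WT control against 0.154 to 0.243 CPM elsewhere, and the groups did not overlap. The test did not call it between the control groups (adjusted p = 0.198) or with αMARCO in WT TAMs (adjusted p = 0.112), and at this depth no fold change is given.

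Of the PDGF ligands, Pdgfc was about 2 times as high in Unc93b1 3d/3d control TAMs as in WT control TAMs, and it was lower with αMARCO. Pdgfc (chr3, 81036416 to 81214040, plus strand) encodes PDGF-C, a latent ligand of PDGF receptor alpha that proteases such as tissue plasminogen activator release. It was at 9.42 and 11.1 CPM in WT control, 19.1 and 21.2 CPM in Unc93b1 3d/3d control, 7.42 and 6.17 CPM in WT αMARCO, and 8.76 and 10.3 CPM in Unc93b1 3d/3d αMARCO. The Unc93b1 3d/3d control libraries stood above the other 6. WT over Unc93b1 3d/3d gave a log2 fold change of -0.99 in control TAMs (SE 0.16, adjusted p = 0.00439). The value ran from -1.105 to -0.87 with 1 library left out, and it was not called when all 8 libraries shared 1 fit (adjusted p = 0.0588). αMARCO over control in WT TAMs gave -0.59 (SE 0.19, adjusted p = 0.0397), and this call was lost without WT control replicate 2 (-0.47), without WT αMARCO replicate 1 (-0.71) and without WT αMARCO replicate 2 (-0.46). DESeq2 did not make the call either (-0.57, adjusted p = 0.103), nor did the fit of all 8 libraries (adjusted p = 0.181). αMARCO over control in Unc93b1 3d/3d TAMs gave -1.08 (SE 0.26, interval -1.71 to -0.44) with groups that did not overlap and an adjusted p of 0.823. That value was -0.96 without Unc93b1 3d/3d αMARCO replicate 1 and -1.20 without replicate 2. The difference between the αMARCO effects was 0.49 (interval -0.18 to 1.17).

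Pdgfb (chr15, 79995874 to 80014977, minus strand), whose product recruits pericytes to new vessels, was abundant in every group. It was at 94.9 and 125 CPM in WT control, 70.4 and 93.4 CPM in Unc93b1 3d/3d control, 123 and 122 CPM in WT αMARCO, and 93.1 and 119 CPM in Unc93b1 3d/3d αMARCO. Its control groups did not overlap but nearly met, and the log2 fold change of 0.41 (SE 0.17, adjusted p = 0.149) was not called. Without WT control replicate 1 the value was 0.60. With αMARCO in Unc93b1 3d/3d TAMs the value was 0.38 (SE 0.25), and without αMARCO replicate 1 of that genotype it became 0.56. Pdgfa (chr5, 138976014 to 138997370, minus strand), the ligand of PDGF receptor alpha, was at 8.68 and 9.20 CPM in WT control and at 11.2 and 12.6 CPM in Unc93b1 3d/3d control. Under αMARCO it was at 7.67 and 9.72 CPM in WT and at 12.2 and 15.0 CPM in Unc93b1 3d/3d TAMs. In both treatments every WT library thus lay below every Unc93b1 3d/3d library, while the log2 fold changes of -0.43 (SE 0.19, adjusted p = 0.145) and -0.64 (SE 0.26, adjusted p = 0.709) were not called. The second was -0.77 without Unc93b1 3d/3d αMARCO replicate 1.

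Igf1 (chr10, 87858265 to 87937042, plus strand), a growth and survival factor, showed the largest of the 3 called genotype differences in control TAMs. It was at 7.21 and 10.5 CPM in WT control, 24.7 and 21.9 CPM in Unc93b1 3d/3d control, 7.33 and 10.3 CPM in WT αMARCO, and 8.98 and 7.68 CPM in Unc93b1 3d/3d αMARCO. Both Unc93b1 3d/3d control libraries stood above all 6 others, which overlapped with each other. WT over Unc93b1 3d/3d in control TAMs gave a log2 fold change of -1.41 (SE 0.20, 2.66-fold lower in WT, adjusted p = 0.00218). It was called under every alternative that kept all libraries, and ran from -1.70 to -1.15 with 1 library left out. Under αMARCO the same contrast gave 0.09 (SE 0.29, interval -0.66 to 0.83), and αMARCO over control in WT TAMs gave 0.0081 (interval -0.53 to 0.55). αMARCO over control in Unc93b1 3d/3d TAMs gave -1.47 (SE 0.26, interval -2.10 to -0.85) with groups that did not overlap and an adjusted p of 0.823. DESeq2 called that change (adjusted p = 0.0155). In edgeR it was -1.58 without Unc93b1 3d/3d αMARCO replicate 1 and -1.37 without replicate 2. The αMARCO effects of the genotypes differed by 1.48 (SE 0.37, interval 0.63 to 2.32, adjusted p = 0.318), a difference that DESeq2 called (1.51, adjusted p = 0.0394). In edgeR this difference was 1.60 without Unc93b1 3d/3d αMARCO replicate 1 and 1.36 without replicate 2.

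Hgf (chr5, 16553495 to 16620152, plus strand), the ligand of MET, was at 11.8 and 10.2 CPM in WT control and at 16.8 and 18.9 CPM in Unc93b1 3d/3d control. The control groups did not overlap, with a log2 fold change of -0.71 (SE 0.17, adjusted p = 0.0179). This call was lost without WT control replicate 2 (-0.61, adjusted p = 0.0622) and without Unc93b1 3d/3d control replicate 2 (-0.64, adjusted p = 0.0747), and in the fit of all 8 libraries (adjusted p = 0.314). In WT αMARCO it was at 12.3 and 16.0 CPM, above both WT control libraries, and the log2 fold change of 0.37 (interval -0.02 to 0.76) was not called. The 2 Unc93b1 3d/3d αMARCO libraries differed more for Hgf than for any other of the 10, at 18.1 and 9.59 CPM. Its log2 fold change with αMARCO in that genotype was thus -0.36 with both, -0.88 without replicate 1 and 0.02 without replicate 2. Against WT αMARCO it was 0.03 with both, 0.57 without Unc93b1 3d/3d αMARCO replicate 1 and -0.35 without replicate 2. The difference between the αMARCO effects was 0.72 (SE 0.42), and 1.26 without that replicate 1.

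Fibroblasts and pericytes also express Igf1, Hgf and Pdgfc, and their 7 markers, all of them listed, moved with these transcripts in part. The markers summed to 92.6 and 77.7 CPM in WT control, 150 and 127 CPM in Unc93b1 3d/3d control, 31.5 and 23.0 CPM in WT αMARCO, and 135 and 66.4 CPM in Unc93b1 3d/3d αMARCO. Most of each sum was Col3a1, and none of the 7 was at or under the floor in both libraries of a group. The first Unc93b1 3d/3d αMARCO library, with a sum of 135 CPM, had Igf1 at 8.98, Pdgfc at 8.76 and Hgf at 18.1 CPM. The second, with a sum of 66.4 CPM, had them at 7.68, 10.3 and 9.59 CPM. In WT αMARCO, where the sums were lower than in WT control, Igf1 was at nearly the same level as in WT control. Pdgfc was lower there, at 7.42 and 6.17 CPM against 9.42 and 11.1 CPM. Hgf was higher there, at 12.3 and 16.0 CPM against 11.8 and 10.2 CPM. Some markers of other cells differed between the control groups as well. The 5 platelet markers had sums of 14.2 and 9.64 CPM in WT control against 48.2 and 61.7 CPM in the mutant. Most of it was Ppbp (log2 -2.41, adjusted p = 0.000131). Itga2b, the only other platelet marker tested, was not called (log2 0.28, SE 0.54). Gp1bb was at or under the floor in both control groups. Gp6 was at or under the floor in WT control and at 0.628 and 0 CPM in the mutant. The sums of the 6 nonclassical monocyte markers went the other way, at 1444 and 1417 CPM against 579 and 443 CPM. Of these 6, 2 were called higher in WT (Spn and Cd300e) and 0 lower. Cd300e was at 557 and 616 CPM in WT control, with a log2 fold change of 6.05 (adjusted p = 1.08e-07). Ace did not follow, at log2 -0.10 (SE 0.74). Between the control groups the part of these cells in the differences was not tested.

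Areg and Hbegf, the EGF receptor ligands, were both lower with αMARCO in WT TAMs. Areg (chr5, 91139599 to 91148432, plus strand) encodes amphiregulin. It was at 15.4 and 14.1 CPM in WT control, 10.7 and 6.85 CPM in Unc93b1 3d/3d control, 7.04 and 9.06 CPM in WT αMARCO, and 12.7 and 16.3 CPM in Unc93b1 3d/3d αMARCO. With αMARCO, both libraries fell below their controls in WT TAMs and both lay above their controls in Unc93b1 3d/3d TAMs. In WT TAMs the log2 fold change was -0.86 (SE 0.18, 1.82-fold lower, adjusted p = 0.00505), a call lost without WT αMARCO replicate 1 (-0.69, adjusted p = 0.0577) and in the fit of all 8 libraries (adjusted p = 0.147). In Unc93b1 3d/3d TAMs it was 0.73 (SE 0.34, interval -0.10 to 1.56, adjusted p = 0.823), and 0.91 without αMARCO replicate 1 of that genotype. The difference of -1.59 between these effects (SE 0.38, interval -2.48 to -0.71) had an adjusted p of 0.317 in edgeR. DESeq2 called it (-1.56, adjusted p = 0.0416), and in edgeR it was -1.77 without Unc93b1 3d/3d αMARCO replicate 1 and -1.42 without replicate 2.

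The same 8 libraries can be compared between the genotypes, which is another view of the same difference and not a second result. Areg then had values of opposite sign in control and under αMARCO, and neither was called in the main fits. In control TAMs Areg was higher in both WT libraries (log2 0.74, SE 0.23, adjusted p = 0.0534). The value was 0.81 without WT control replicate 2, 1.09 without Unc93b1 3d/3d control replicate 1 and 0.43 without Unc93b1 3d/3d control replicate 2. Under αMARCO Areg was lower in both WT libraries (-0.84, SE 0.27, adjusted p = 0.687). That value was -1.01 without Unc93b1 3d/3d αMARCO replicate 1 and -0.65 without replicate 2. With the replicate number as a block, the control value was 0.76 and was called (adjusted p = 0.00978), although the numbers only name the libraries. Hbegf on chr18, the gene of HB-EGF, was at 10.2 and 6.71 CPM in WT control, 5.78 and 6.24 CPM in Unc93b1 3d/3d control, 4.61 and 4.44 CPM in WT αMARCO, and 6.86 and 4.15 CPM in Unc93b1 3d/3d αMARCO. The WT control libraries stood above the WT αMARCO libraries, with a log2 fold change of -0.90 (SE 0.24, 1.86-fold lower with αMARCO, adjusted p = 0.0176). The call was lost without WT control replicate 1 (-0.57), without WT αMARCO replicate 1 (-0.91) and without WT αMARCO replicate 2 (-0.87), at adjusted p-values of 0.0925 to 0.099, and in the fit of all 8 libraries (adjusted p = 0.184). In the other comparisons Hbegf was not called, and the difference between the αMARCO effects was -0.79 (interval -1.83 to 0.26).

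T cells can make amphiregulin, and the markers of T cells and of mature dendritic cells moved with Areg and Hbegf in WT TAMs. The 8 T cell markers, all listed, summed to 84.6 and 98.3 CPM in WT control and to 7.91 and 11.2 CPM in WT αMARCO, and all 8 were called lower with αMARCO. The 6 mature dendritic cell markers summed to 939 and 514 CPM in WT control and to 130 and 152 CPM in WT αMARCO. In Unc93b1 3d/3d TAMs the T cell sums were 16.1 and 7.51 CPM in control and 3.66 and 4.28 CPM with αMARCO, where Areg was at 12.7 and 16.3 CPM and Cd8a was at or under the floor. The mature dendritic cell sums there were 168 and 135 CPM in control and 134 and 123 CPM with αMARCO, and Il4i1 was at or under the floor in every group but WT control. In WT TAMs the part of these cells in the 2 falls was not tested.

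Receptors for the factors were present in the same libraries, and those that differed between the control groups were lower in WT TAMs. Of 16 receptors and co-receptors 15 were listed and tested. In control TAMs 0 were called higher and 4 lower in WT, and with αMARCO in WT TAMs 0 were called higher and 2 lower. Over all genes tested, 6.58% were called higher and 6.4% lower in the first comparison, and 8.91% higher and 11.8% lower in the second. The median log2 fold changes of the list were -0.34 and -0.25, beside -0.0036 and -0.01 over all genes, and in the other 2 comparisons edgeR called 0. Kdr, the main VEGF-A receptor, was at 56.4 to 82.6 CPM in all libraries and was not called, with a log2 fold change of 0.05 (SE 0.09) with αMARCO in WT TAMs, where Vegfa rose. Flt1, a receptor of VEGF-A and VEGF-B, was at 9.63 and 4.82 CPM in WT control and at 1.85 and 1.63 CPM in Unc93b1 3d/3d αMARCO. Its log2 fold change between the control groups was 1.01 (SE 0.36, adjusted p = 0.0783). Flt4, the VEGF-C receptor, was at 0.437 to 1.42 CPM and was not called.

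The neuropilins are co-receptors of the VEGF ligands. Nrp2 was at 86.4 and 103 CPM in WT control and at 146 and 164 CPM in Unc93b1 3d/3d control (log2 -0.73, SE 0.11, adjusted p = 0.00326). Nrp1 was at 65.2 and 95.9 CPM against 101 and 115 CPM and was not called (log2 -0.44, SE 0.18). The PDGF receptors differed more. Pdgfra was at 16.5 and 11.6 CPM in WT control, 28.9 and 24.8 CPM in Unc93b1 3d/3d control, 8.20 and 3.97 CPM in WT αMARCO, and 28.7 and 12.9 CPM in Unc93b1 3d/3d αMARCO. It was called between the control groups (log2 -0.95, SE 0.18, adjusted p = 0.00857) and with αMARCO in WT TAMs (log2 -1.21, SE 0.36, adjusted p = 0.0417). Pdgfrb was at 4.84 and 2.83 CPM in WT control against 14.9 and 9.03 CPM in Unc93b1 3d/3d control (log2 -1.65, SE 0.34, adjusted p = 0.0126). Both PDGF receptors mark fibroblasts and pericytes, whose marker sums are given above and followed the same order of groups. Egfr, the receptor of Hbegf and Areg products, was at 1.26 and 0.887 CPM in WT control and at 4.39 and 3.40 CPM in Unc93b1 3d/3d control (log2 -1.86, SE 0.38, adjusted p = 0.0104). Erbb2, a partner of that receptor, fell with αMARCO in WT TAMs from 2.63 and 1.72 CPM to 0.971 and 0.501 CPM (log2 -1.57, SE 0.48, adjusted p = 0.0297). Igf1r and Met, the receptors of IGF-1 and HGF, were not called between the control groups, at log2 -0.88 (SE 0.27, adjusted p = 0.0672) and -0.34 (SE 0.19, adjusted p = 0.263). Met had an adjusted p of 0.00534 with αMARCO in WT TAMs at a log2 fold change of -0.49, just under the size required.

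**Figure D3:**
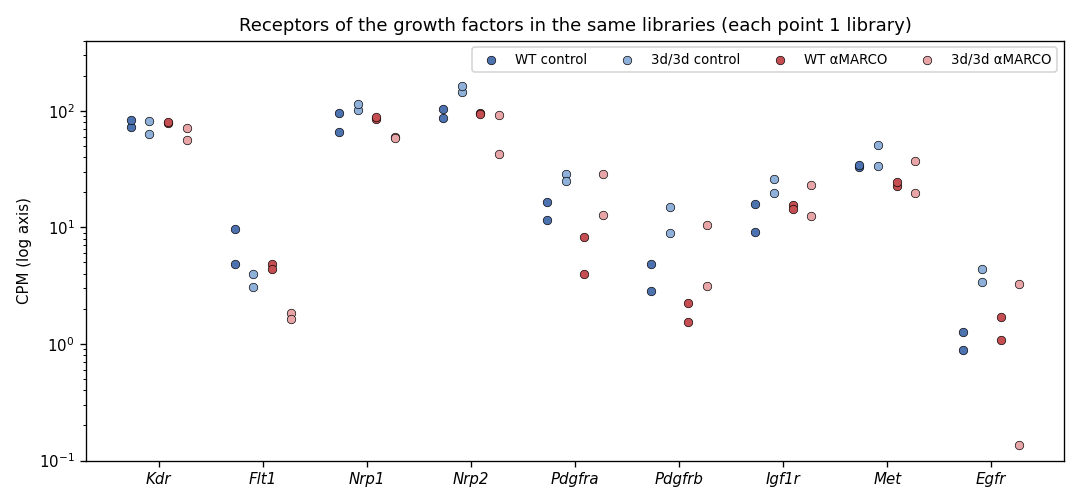
CPM (log axis) of 9 receptors and co-receptors of the 10 factors, each point 1 library, in the 4 groups. Kdr varies little, the Unc93b1 3d/3d control libraries are the higher ones for Nrp2, Pdgfra, Pdgfrb and Egfr against WT control, and the lowest Egfr point (0.136 CPM, Unc93b1 3d/3d αMARCO replicate 2) lies under the floor of its library.

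Genes that bind, release or activate the factors differed in both directions. Of 18 such genes 16 were listed, and of the 14 tested in control TAMs 3 were higher and 3 lower in WT. Of the 13 tested with αMARCO in WT TAMs 1 was higher and 5 were lower. The shares over all genes tested were 6.58% higher and 6.4% lower in the first comparison, and 8.91% higher and 11.8% lower in the second. Furin, a protease that processes many growth factor precursors, was at 207 and 200 CPM in WT control, 314 and 323 CPM in Unc93b1 3d/3d control, and 314 and 351 CPM in WT αMARCO. It was thus lower in WT control TAMs than in the mutant (log2 -0.66, SE 0.09, adjusted p = 0.00188) and rose with αMARCO in WT TAMs (log2 0.72, SE 0.09, adjusted p = 0.00042). Igfbp4, a binding protein that limits IGF-1, was lower in WT than in Unc93b1 3d/3d control TAMs (log2 -0.53, adjusted p = 0.0126), as Igf1 was. It fell with αMARCO in WT TAMs (log2 -0.55, adjusted p = 0.00484), where Igf1 did not pass the test. The groups of Igfbp4 stood in the order of the fibroblast and pericyte sums given above, and the part of those cells was not tested. Plat, the tissue plasminogen activator that can release PDGF-C, fell from 9.63 and 8.48 CPM in WT control to 1.75 and 2.85 CPM in WT αMARCO (log2 -1.95, SE 0.27, adjusted p = 0.000764). Plau, the urokinase activator that can cleave pro-HGF, was lower in WT control TAMs at 318 and 372 CPM against 480 and 615 CPM in the mutant (log2 -0.68, adjusted p = 0.00984). St14, matriptase, another activator of pro-HGF, was higher in WT control TAMs than in the mutant (log2 0.91, adjusted p = 0.0269) and fell with αMARCO (log2 -1.97, adjusted p = 0.000694). Spint2, an inhibitor of the HGF activator, went the same way with log2 fold changes of 2.81 and -3.73 (adjusted p = 0.00938 and 0.000168), from 14.1 and 8.04 CPM in WT control to 0.971 and 0.694 CPM in WT αMARCO. Spint2, like the mature dendritic cell and T cell sums given above, was highest in WT control, and the part of those cells in its values was not tested. St14 was also highest there, where the epithelial and tumor cell sums were 106 and 52.3 CPM. It was at 4.33 and 5.24 CPM in Unc93b1 3d/3d αMARCO, where the T cell sums were lowest and the epithelial and tumor cell sums were 70.4 and 69.1 CPM. In WT αMARCO it was at 2.86 and 1.85 CPM, with epithelial and tumor cell sums of 30.9 and 32.0 CPM. The part of these cells in the St14 values was not tested.

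Other ligands and vessel-directed factors held calls in 1 direction only with αMARCO in WT TAMs, all of them lower. Of 14 other ligands of the same families 13 were listed, and of 7 tested in that comparison 0 were higher and 3 were lower. Between the control groups 0 of 8 were called. Over all genes tested, 8.91% were higher and 11.8% lower with αMARCO in WT TAMs, and 13% were called between the control groups. Ereg, whose product epiregulin is another ligand of the EGF receptor, fell from 7.21 and 10.1 CPM to 2.14 and 3.01 CPM (log2 -1.73, SE 0.27, adjusted p = 0.00134). Egf fell from 4.68 and 4.66 CPM to 2.38 and 2.58 CPM (log2 -0.90, SE 0.26, adjusted p = 0.0231). Mst1, whose product is related to HGF, fell from 2.58 and 1.995 CPM to 1.12 and 0.463 CPM (log2 -1.55, SE 0.49, adjusted p = 0.0329). The neuregulin genes Nrg1 and Nrg4 of the same list were not called, at log2 0.19 (SE 0.18) and 0.54 (SE 0.29).

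Of 16 other vessel-directed factors 15 were listed and 13 tested. Of these, 2 were higher and 2 lower in WT than in Unc93b1 3d/3d control TAMs, and 0 were higher and 4 lower with αMARCO in WT TAMs. Among all genes tested, 6.58% were higher and 6.4% lower in the first comparison, and 8.91% higher and 11.8% lower in the second. Adm, the vasodilator adrenomedullin, fell with αMARCO in WT TAMs from 20.5 and 23.5 CPM to 5.73 and 5.63 CPM (log2 -1.95, SE 0.15, adjusted p = 7.23e-05), while Vegfa rose. Angptl4, an angiopoietin-like regulator of lipid uptake and vessels, was higher in WT control TAMs than in the mutant (log2 1.81, SE 0.22, adjusted p = 0.00101) and fell with αMARCO (log2 -0.78, adjusted p = 0.00643). Mmp9, a protease that frees VEGF-A from the matrix, went the same way at log2 1.396 and -0.71 (adjusted p = 0.00358 and 0.0470). Sema3a, which competes for neuropilin, was lower in WT control TAMs than in the mutant (log2 -0.63, adjusted p = 0.0235) and fell with αMARCO in WT TAMs (log2 -1.07, adjusted p = 0.00459). Its groups stood in the order of the fibroblast and pericyte sums. In Unc93b1 3d/3d αMARCO it was at 27.3 and 10.6 CPM, beside sums of 135 and 66.4 CPM. The part of these cells in its values was not tested. Spp1, the osteopontin gene, was lower in WT control TAMs at 524 and 355 CPM against 911 and 745 CPM in the mutant (log2 -0.93, SE 0.20, adjusted p = 0.0229).

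The rise of Vegfa with αMARCO in WT TAMs stood beside 18 listed hypoxia genes of which none was called. Adm and Angptl4, which fell in this comparison, stand on the list of vessel-directed factors above and not on this one. All 18 hypoxia regulators and response genes were tested, and edgeR called 0 of them in that comparison, where it called 20.7% of all genes tested. Their median log2 fold change was 0.07, beside -0.01 over all genes. Epas1, which encodes HIF-2 alpha, was at -0.51 (SE 0.36, adjusted p = 0.304), past the size required but not the adjusted p. Of the genes with positive values, Hk2, a glycolytic enzyme, was at 0.44 (SE 0.09, adjusted p = 0.00616) and Arnt, the partner of the HIF alpha subunits, at 0.44 (SE 0.08, adjusted p = 0.00293), both under the size required. Bnip3, a mitophagy gene, was at 0.34 (SE 0.08, adjusted p = 0.0112). Ero1l was at 0.33 (SE 0.08, adjusted p = 0.0084), and Hif1a itself was at 0.29 (SE 0.10, adjusted p = 0.0467). Of the genes with negative values, Higd1a was at -0.35 (SE 0.10, adjusted p = 0.0204) and Ldha at -0.26 (SE 0.09, adjusted p = 0.0481). In control TAMs 0 of the 18 were higher and 2 lower in WT, namely Bnip3 (log2 -0.70, SE 0.19, adjusted p = 0.0462) and Hk2 (log2 -0.60, SE 0.12, adjusted p = 0.0103). In the Unc93b1 3d/3d control library with Vegfa at 214 CPM, Bnip3 was at 131 CPM against 88.7 CPM in its replicate and 64.8 and 71.9 CPM in WT control.

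**Figure D4:**
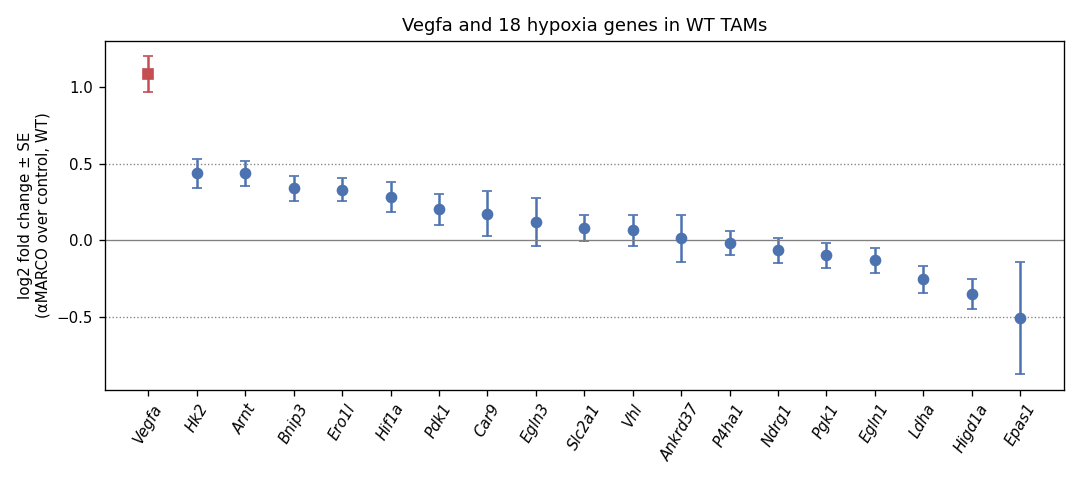
Log2 fold change ± SE (vertical axis) with αMARCO over control in WT TAMs for Vegfa (square) and 18 hypoxia genes (circles, ordered by value), with dotted lines at the size required for a call. Vegfa lies at 1.08, and the hypoxia genes reach from 0.44 for Hk2 down to -0.51 for Epas1.

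Across the 8 libraries the 10 transcripts did not move as 1 group. Pearson correlations of log2 CPM are given as descriptions, over 8 libraries that share their 4 groups. The highest between any pair was 0.84 for Pdgfc with Igf1, and the lowest was -0.68 for Pdgfb with Pdgfc. Vegfa reached at most 0.28 with any other member, for Pdgfb, and Areg at most 0.47, for Vegfc. Among 9054 genes with a mean of at least 10 CPM, those most like Vegfa were Cdc42ep4 (r = 0.98), Kmt5a (0.97) and Ugcg (0.97). Those most like Igf1 were Cd22 (0.96), Urgcp (0.95) and Mmp27 (0.95), and those most like Pdgfc were Timp2 (0.96), CT010467.1 (0.95) and Gpr107 (0.94). For Areg they were Sc5d (0.98), Rpl17 (0.96) and Ahcy (0.92), for Hgf Mier1 (0.98), Dapk1 (0.96) and March8 (0.95), and for Hbegf Cacfd1 (0.98), Lonp2 (0.97) and Tmod3 (0.95). For Pdgfb they were Kat14 (0.97), Armc5 (0.95) and Nadsyn1 (0.94), for Pdgfa Clec4n (0.97), Ano10 (0.96) and Klc4 (0.96), for Vegfb Ttll12 (0.92), Iars2 (0.90) and Tm9sf1 (0.89), and for Vegfc Nde1 (0.99), Ncbp3 (0.98) and Mapkap1 (0.98).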

How the data were processed

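Bulk poly-A RNA was sequenced from 8 libraries of sorted TAMs in 4 groups of 2. The authors cleaned reads with fastp, aligned them to GRCm38 with HISAT2 2.0.5 and counted reads per gene with featureCounts 1.5.0, and the strand setting is not given in the sources used here. The deposited raw counts carry no normalization. For the deposited signal columns the authors scaled each library by a size factor from DESeq2 1.40.2, and the deposited FPKM is the authors' count per gene length and library total. The authors' log2 fold changes and p-values come from DESeq2. Of these the raw counts and the gene lengths were used, and the authors' own comparisons were not.

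The 3 tables were joined by identifier into 26939 genes. None of the 95230 counts that tables share differed between them, and a gene missing from a table was set to 0, since such genes had at most 1 count where they could be checked. Library totals ran from 15182618 to 26411936 counts. CPM used TMM factors over all 8 libraries, and FPKM in the text is that CPM per kilobase. The floor is 3 counts in a library, and floors cover counting error only. Each comparison was fitted on its own 4 libraries with edgeR 4.0.16 (R 4.3.3, filterByExpr, TMM, robust quasi-likelihood test) and adjusted by Benjamini-Hochberg over all genes tested, and the difference of the αMARCO effects came from all 8. Fold changes are WT over Unc93b1 3d/3d, or αMARCO over control. The p-values rest on the spread between 2 samples, which may be technical. Intervals are 95% intervals of the fit.

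Alternatives were DESeq2 1.42.0, its size factors, other filters and fold thresholds, a replicate block, 1 fit of all 8 libraries, leaving out each library (a lone sample is then assumed to vary like the other group) and, chosen after seeing the data, a smooth adjustment on the length and GC content of genes (mgcv 1.9.3). The tests were tried on counts simulated with the same spread in every group. Such counts do not cover the wider spread between the Unc93b1 3d/3d αMARCO libraries. The 10 genes and the gene lists were chosen with earlier results of these data known. Genes named were the 10 factors, listed genes that were called or are the main receptors, and the 3 genes with the highest correlation to each factor. Listed genes needed a mean of at least 1 CPM, and Hif1a, Arnt, Epas1, Ero1l, Higd1a, Ldha, Nrg1 and Nrg4 were named after their values were seen.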

Additional observations from a re-analysis of the deposited data

Results flagged for a closer look

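Areg moved in opposite directions with αMARCO in the genotypes, without overlap in either. In WT TAMs it was at 15.4 and 14.1 CPM in control and at 7.04 and 9.06 CPM with αMARCO, and in Unc93b1 3d/3d TAMs at 10.7 and 6.85 CPM in control and at 12.7 and 16.3 CPM with αMARCO. The log2 difference between the effects was -1.59 (SE 0.38), with an adjusted p of 0.317 in edgeR and of 0.0416 in DESeq2 (-1.56). Over the alternatives that kept all libraries it ranged from -1.59 to -1.28, and with 1 library left out from -1.95 to -1.31. With all libraries kept, it was called by DESeq2 and with a filter of at least 1 count. The numbers of all genes called in these fits are given below. Fits without 1 library give only its size here, since a lone sample is then assumed to vary like the other groups. The share of all genes that moved in opposite directions without overlap was not counted. Groups of 2 are too small to test single samples for lying apart. Unc93b1 3d/3d αMARCO replicate 2 differed from the other libraries in the measures given at the start.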

How the results depend on the processing

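Of the 10 factors, the number called between the control groups (3) was 1 with a log2 fold change of at least 1 and 1 in the fit of all 8 libraries, and 3 to 4 with 1 library left out. With αMARCO in WT TAMs the number (4) was 1 with a fold change of at least 1, 0 in the fit of all 8 libraries, and 1 to 3 with 1 library left out, 1 without WT αMARCO replicate 1 and 2 without replicate 2. The 0 calls between genotypes under αMARCO became 1 by DESeq2 and ranged from 0 to 5 with 1 library left out. The 0 calls with αMARCO in Unc93b1 3d/3d TAMs became 1 by DESeq2, 1 with a filter of at least 1 count, and 0 to 5 with 1 library left out. The 0 calls for the difference of the effects became 2 by DESeq2, 1 with at least 1 count, and 0 to 3 with 1 library left out. The highest of each of these 3 ranges is without Unc93b1 3d/3d αMARCO replicate 1, and without replicate 2 each count was 2. The cause was not tested.

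With the replicate number as a block, 4 factors were called between the control groups (Areg was added), 3 with αMARCO in WT TAMs (Pdgfc was lost, adjusted p = 0.0584) and 0 elsewhere. The numbers only name the libraries, and same-numbered libraries deviated together with correlations of -0.077 to 0.14.

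Over all genes, the fit of 8 libraries called 364 between the control groups (2025 in the separate fit), 164 with αMARCO in WT TAMs (3236), 108 between genotypes under αMARCO (0) and 1 with αMARCO in Unc93b1 3d/3d TAMs (0). A fold change of at least 1 left 951 and 1366 in the first 2 comparisons, and no fold threshold gave 5487 in the second, which without WT αMARCO replicate 1 gave 1940. For the 3 comparisons that hold Unc93b1 3d/3d αMARCO and had 0 calls (between genotypes, αMARCO against control, and the difference of the effects), DESeq2 gave 215, 60 and 208, a filter of at least 1 count 107, 174 and 152, the length and GC correction 15, 1 and 3, leaving out that group's replicate 1 6366, 5500 and 6440, and its replicate 2 1252, 571 and 612. The block gave 97 and 5 in the first 2 of these.

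Some small values changed sign. With the length and GC correction this held between genotypes under αMARCO for Igf1 (-0.10) and Hgf (-0.031), and with αMARCO in WT TAMs for Vegfb (0.12), Pdgfa (0.10) and Igf1 (-0.23), which was -0.0026 in the fit of all 8 libraries. With 1 library left out, values between the control groups ran from -0.59 to 0.41 for Vegfa and from -0.14 to 0.071 for Vegfb. Between genotypes under αMARCO they ran from -0.0033 to 0.061 for Vegfb, -0.18 to 0.32 for Igf1, -0.35 to 0.57 for Hgf and -0.60 to 0.13 for Hbegf. With αMARCO in WT TAMs they ran from -0.21 to 0.0037 for Vegfb, -0.22 to 0.14 for Pdgfa, -0.023 to 0.37 for Pdgfb and -0.27 to 0.30 for Igf1. With αMARCO in Unc93b1 3d/3d TAMs they ran from -0.67 to 0.31 for Vegfa, -0.88 to 0.016 for Hgf and -0.52 to 0.19 for Hbegf, and for the difference of the effects from -0.059 to 0.15 for Vegfb. Of 40 group levels 2 moved by more than 1 SD without TMM factors. Depth limits Vegfc, at 3 to 11 counts per library.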

Other observations

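The tables print symbols that differ from those of GENCODE M21 for 569 of the 26457 genes with an entry there. The Areg row is one of them and reads Mcub, a symbol that also stands on 1 other row, on chr3, with 979 to 1669 counts per library, so a search by symbol returns that row and misses Areg.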
